A study of Mus musculus with 18 samples.

Results

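The array of R848-stimulated, apilimod-treated RAW cells at 22 h was compared with the array at 7 h. RAW is an established line of mouse macrophages. The members are the 2 arrays labelled R848 with apilimod at these hours, out of 18 arrays in the series, and they were chosen by their labels alone. R848 (resiquimod) is a small-molecule agonist of mouse Toll-like receptor 7. The labels give R848 at 0.1 mM and the compounds at 1 uM, and this R848 dose is high enough that the unit may be in error. All arms were RAW cells of the same line. The medium arm had no R848. The R848 arm had R848 alone, the R848+API09 arm had R848 with API09, which the series design calls the inactive analog of apilimod, and the R848+apilimod arm had R848 with apilimod. Each arm had 1 array at 1, 3, 7 and 22 h, and medium had 2 arrays at 0 h.

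At each hour, R848 alone and R848+API09 together formed the R848 controls, 2 arrays at 7 h and 2 at 22 h. Because the apilimod arm had 1 array per hour, the spread came from the R848 and R848+API09 pairs of all hours and from the 2 medium arrays at 0 h, and the lone arrays were assumed to vary like them. The labels do not say that the arrays came from separate cultures, so p-values reflect array-to-array spread that could be technical. RAW cells are 1 line, which limits how far the values stand for macrophages at large.

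Apilimod inhibits PIKfyve, a lipid kinase that makes phosphatidylinositol 3,5-bisphosphate on endosomes and lysosomes. Loss of this lipid swells endolysosomes, slows the traffic and digestion of their cargo, and lets the transcription factors TFEB and TFE3 enter the nucleus, where they switch on lysosomal genes. Apilimod became known as an inhibitor of IL-12 and IL-23 production. In macrophages, Toll-like receptor 7 sits in endolysosomes and signals through MyD88 to NF-kB, MAP kinases and interferon regulatory factors, and a wave of early cytokines is followed by feedback inhibitors, interferon-stimulated genes and a slowing of the cell cycle.

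Values are log2 of the deposited intensity plus 16. A level is such a value on 1 array, an effect is the apilimod array minus the mean of the R848 controls of the same hour, and all differences below are in log2 units. A gene was called at an adjusted p of 0.05 by limma. Levels under 5.09, which is the overall median intensity used as the filter level, were read as near background. Where the apilimod array or both controls of an hour lay under it, the effect is given as at least the difference from 5.09, a rule added after the values were seen. The effects at 7 and at 22 h share no array. The 7 h arrays enter both the effect at 7 h and its change by 22 h, so a large 7 h value carries its own error into both. The median intensity of the 18 arrays ran from 17.5 to 19.2. The upper quartile was 114 on the apilimod array at 7 h and 101 at 22 h, 104 on the R848 array at 22 h and 87.0 on the R848+API09 array at 22 h, the dimmest of all. The R848 and R848+API09 pair had an SD of differences over genes of 0.222 at 22 h against 0.111 to 0.132 at 1, 3 and 7 h. The mean log2 level of 3 probe sets for 18S ribosomal RNA was 8.61 on the apilimod array at 7 h and 9.45 at 22 h. It was 8.54 and 10.14 on the 2 control arrays at 7 h and 8.69 and 10.53 at 22 h, and its part in the results was not tested. All 10 defining macrophage genes were measured, with a summed intensity of 49710 on the apilimod array at 7 h and 51619 at 22 h, against 54396 to 54836 and 50166 to 52724 in the controls. Of the markers of other cells, 5 of 8 for T cells, 2 of 7 for B cells, 3 of 8 for neutrophils, 2 of 6 for epithelium and 1 of 7 for fibroblasts were bright enough to be tested. T cell markers summed to 271 and 397 with apilimod at 7 and 22 h, against 290 to 307 and 335 to 410 in the controls, and were led by Zap70. No other of these lists summed to more than 139 on any array. In bulk RNA, fewer cells of a state and less RNA per cell cannot be told apart.

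Between 7 and 22 h with apilimod, Lcn2, Car6 and H1f2 rose most among the called genes, and Sfpq, Gpr84 and Rnf145 fell most. Of 12257 genes tested, 6312 (51.5%) changed, 3288 higher (26.8%) and 3024 lower (24.7%), with a median difference of 0.08 over all genes. The R848 controls also changed widely over the same hours, with 7225 genes called (58.9%), 3651 higher (29.8%) and 3574 lower (29.2%). Medium had 1660 (13.5%), 911 higher (7.43%) and 749 lower (6.11%). The control change rests on 2 arrays per hour, with a median SE of 0.0895, against 0.127 with apilimod or in medium. Changes in the controls were therefore called at a finer precision, here and in the lists below. Of the genes that rose with apilimod, 2241 also rose in the controls, which is 68.2% of the apilimod list and 61.4% of the control list. Of those that fell, 2349 also fell in the controls, 77.7% and 65.7% of the lists. A further 126 genes rose with apilimod and fell in the controls, and 167 fell with apilimod and rose in the controls. Across genes, which are not independent replicates, the changes of the 2 arms had a Pearson r of 0.749 and a Spearman rho of 0.724.

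The largest rise was in Lcn2, which encodes lipocalin 2, an iron-sequestering acute-phase protein. Its level was 6.15 at 7 h and 10.91 at 22 h with apilimod, a rise of 4.76 (adjusted p = 1.18e-08), and 9.23 and 9.34 at 7 h and 12.30 and 12.47 at 22 h in the controls. Both apilimod arrays lay below both control arrays of their hour. Car6, a secreted carbonic anhydrase, rose by 4.07, the linker histone gene H1f2 by 3.97 and Gadd45a, a growth arrest and DNA damage gene, by 3.57. Sqor, which oxidises sulfide in mitochondria, rose by 3.16, Urah by 3.12, the carnitine acyltransferase gene Crot by 3.07, the lectin gene Clec4n, also called dectin-2, by 3.07, the glutathione transferase gene Gstp1 by 3.07 and the histone gene H2ac19 by 3.04. All of these rose in the controls as well, by 1.08 to 4.12. A dimmer probe set of Crot differed by only 0.19, and H2ac19 belongs to a family of near-identical genes whose probe sets may share signal.

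The largest fall was in Sfpq, a paraspeckle and splicing factor, from 10.60 to 5.69 with apilimod, a fall by 4.91 (adjusted p = 8.7e-09). The controls went from 10.77 and 10.72 to 7.08 and 6.74. Among the 6 probe sets of Sfpq the difference ran from -0.37 to -4.91. The splicing factor gene Srsf2 fell by 3.79 and Pspc1, a paraspeckle partner of Sfpq, fell by 3.14, and a dim probe set of Srsf2 gave 0.06. Gpr84, a receptor for medium-chain fatty acids, fell by 4.35, while the 2 control arrays at 22 h were far apart for it, at 7.46 and 6.03. The ubiquitin ligase gene Rnf145, which is known to respond to sterols, fell by 3.87, the fatty acid synthase gene Fasn by 3.41, the isoprenoid enzyme gene Idi1 by 3.36 and the interferon-stimulated gene Ifi44l by 3.32. Tnf fell by 3.23 and the lysosomal membrane gene Gpr137b by 3.16, although a second probe set of Gpr137b gave -0.95.

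**Figure D1:**
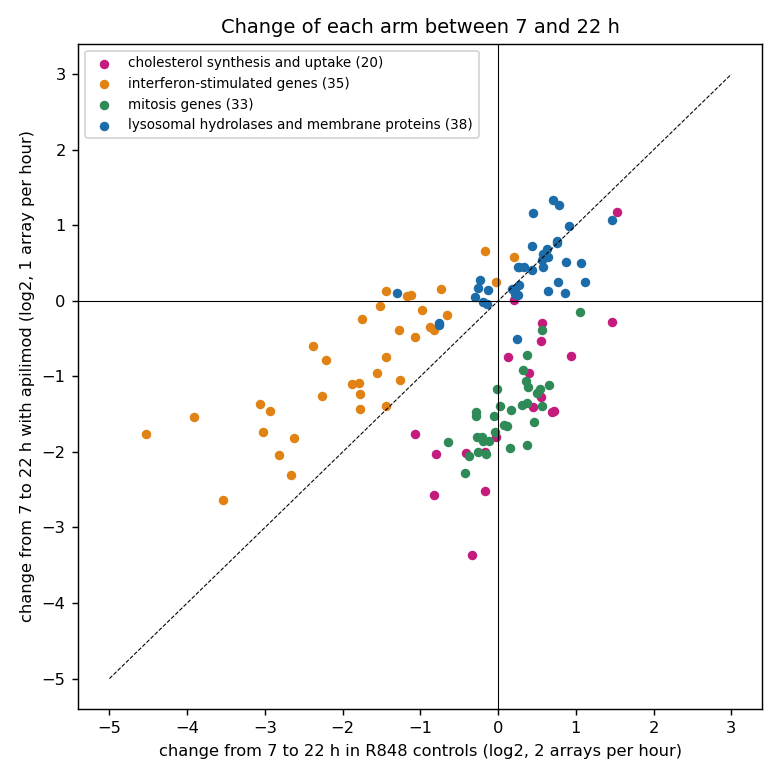
Change from 7 to 22 h in the R848 controls (x axis, log2, mean of 2 arrays per hour) against the change with apilimod (y axis, log2, 1 array per hour) for the members of 4 gene lists, 1 point per gene, with the dashed line where both are equal. Cholesterol genes and mitosis genes lie below the line, with medians of -1.43 and -1.52 with apilimod against 0.30 and 0.11 in the controls, while interferon-stimulated genes lie above it, at -0.78 against -1.56.

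At 7 h the apilimod array differed from the controls in 2405 genes (19.6%), 1202 higher (9.81%) and 1203 lower (9.81%). By 22 h it differed in 4232 (34.5%), 2476 higher (20.2%) and 1756 lower (14.3%). The change of the effect was itself called for 2451 genes (20%), 1378 upward (11.2%) and 1073 downward (8.75%). Of the 2405 genes of 7 h, 1264 (10.3% of all genes tested) persisted, meaning that they were called at both hours in the same direction, 730 higher and 534 lower. A further 508 (4.14%) faded, meaning that they were not called at 22 h and their effect had changed toward 0 by the test of the change. For 181 genes (1.48%) the effect reversed, with calls of opposite sign at the 2 hours, and 452 (3.69%) were undecided because neither the 22 h effect nor its change was called. Of the genes of 7 h, these are 52.6%, 21.1%, 7.53% and 18.8%. Among the 1264, the effect grew in 153 (1.25%), shrank in 227 (1.85%) and had no called change in 884 (7.21%). A late effect, called at 22 h but not at 7 h and with a called change, was present in 1287 genes (10.5%), 735 higher and 552 lower. Median centring gave 2326 higher and 2148 lower effects at 22 h, 1342 upward and 1376 downward changes, and 699 higher and 716 lower late effects. The excess of upward over downward changes was thus absent with that scaling, and the excess of higher effects at 22 h was smaller. In the main fit 1500 further genes (12.2%) were called at 22 h only, with no called change. Without the R848 array at 22 h, changed effects numbered 4567, faded 766, reversed 468 and late 2419, and without the R848+API09 array at 22 h reversed effects numbered 352. Without the R848 array at 22 h the 22 h effects of Ralgds (0.42), Zfp503 (0.54), Ptpn22 (0.24), Ifit3 (0.56) and Myc (0.50), described below as faded, were called higher.

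**Figure D2:**
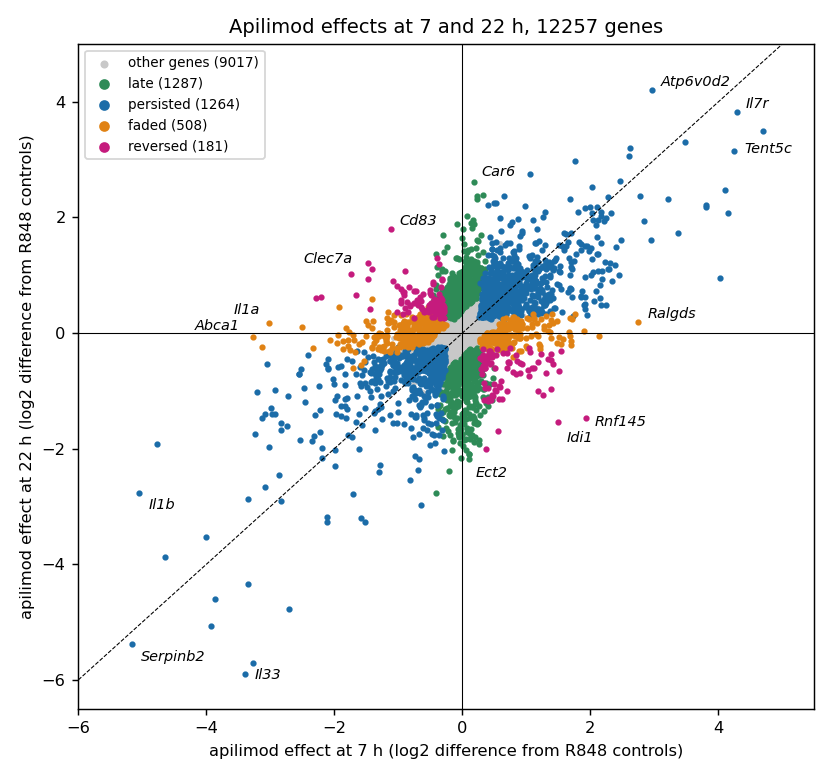
Apilimod effect at 7 h (x axis) against 22 h (y axis), both as log2 difference from the R848 controls, for 12257 genes, with 1264 persisted, 508 faded, 181 reversed and 1287 late genes in colour and the dashed line where both effects are equal. Il7r and Serpinb2 lie far out near the line, Abca1 and Il1a lie at about 0 on the y axis, and Idi1 and Clec7a lie in the quadrants of opposite sign.

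The arm that moved differed between the classes. Genes whose higher level faded fell by a median of 0.64 with apilimod and differed by a median of 0.05 in the controls. Genes whose lower level faded differed by 0.37 with apilimod and by -0.38 in the controls. Reversed genes that were higher at 7 h differed by a median of -1.09 with apilimod and 0.14 in the controls, and those lower at 7 h by 0.47 and -0.61. Persisted effects with no called change had medians of 0.64 and 0.68 at the 2 hours for genes that were higher, and -0.56 at both hours for genes that were lower.

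Sterol synthesis genes went from higher to lower. Of 20 tested genes of cholesterol synthesis and uptake, 18 were higher with apilimod at 7 h and none lower, with a median effect of 1.32 against -0.02 over all genes. At 22 h 2 were higher and 11 lower, with a median of -0.34 against 0.03, and the effect had changed downward in 18 of 20. By class, 10 reversed and 6 faded. With apilimod 17 of the 20 fell from 7 to 22 h, while in the controls 10 rose and 5 fell and in medium 1 rose and 3 fell.

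Idi1 makes dimethylallyl diphosphate in the isoprenoid pathway. Its level with apilimod was 11.84 at 7 h and 8.48 at 22 h, against 10.39 (R848) and 10.31 (R848+API09) at 7 h and 10.09 and 9.93 at 22 h. The apilimod array thus lay above both controls at 7 h and below both at 22 h, with effects of 1.49 ± 0.120 (SE) and -1.53 ± 0.120 and an adjusted p of 2.91e-06 for the change by limma. Hmgcs1, the synthase that makes the substrate of HMG-CoA reductase, went from 11.56 to 9.05 with apilimod and from 10.35 and 10.25 to 10.09 and 10.17 in the controls, so its effect turned from 1.26 to -1.08. The methylsterol oxidase gene Msmo1 turned from 1.03 to -0.74, the squalene synthase gene Fdft1 from 1.52 to -0.66 and the lanosterol synthase gene Lss from 1.54 to -0.31, the last with a 22 h call lost without the R848 array of 7 or of 22 h, the R848+API09 array of 7 h, the 1 h arrays or either medium array at 0 h. Mvd, the mevalonate diphosphate decarboxylase, faded from 2.13 to -0.04, with 9.88 at 7 h and 8.40 at 22 h with apilimod and 7.74, 7.76, 8.56 and 8.34 in the controls. Insig1, which retains the sterol sensor SCAP in the endoplasmic reticulum, stayed higher, with effects of 1.51 and 0.83. Rnf145 moved as the enzymes did, from 10.56 to 6.69 with apilimod against 8.64 on both control arrays at 7 h and 8.26 and 8.07 at 22 h, and its effect turned from 1.93 to -1.48.

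The effect on fatty acid synthesis genes turned in the same direction. Of 18 tested, 12 were higher at 7 h and none lower (median effect 0.52). At 22 h 2 were higher and 10 lower (median -0.33), with 7 reversed and 2 faded. With apilimod 9 fell and 2 rose from 7 to 22 h (median -0.34), while in the controls 10 rose and 3 fell (median 0.27). Fasn had a level of 10.37 at 7 h and 6.96 at 22 h with apilimod, against 9.11 and 8.87 and then 8.04 and 7.83 in the controls. Its effect turned from 1.38 ± 0.118 to -0.97 ± 0.118 (adjusted p of the change 1.07e-05). The stearoyl-CoA desaturase gene Scd1 was 8.71 and 8.56 with apilimod, a difference of -0.15 that was not called, while the controls rose by 1.63. Its relative Scd2 turned from 0.59 to -0.93, with a fall by 0.72 with apilimod and a rise of 0.80 in the controls, both called, and the phospholipid acyltransferase gene Lpcat1 from 1.17 to -1.002. Abca1, the cholesterol efflux pump that LXR receptors control, was among the strongest faded effects. It stood at 5.86 with apilimod against 9.28 and 8.98 at 7 h, and at 6.49 against 6.73 and 6.41 at 22 h, inside the controls. Its effect went from -3.28 ± 0.150 to -0.08 ± 0.150 (adjusted p of the change 7.89e-06), as the controls fell by 2.57.

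The bases before the start of Hmgcs1 are shown because it was the only cholesterol gene whose window held the sterol regulatory letters searched, TCACNCCAC on either strand. These letters were found in 1 of 16 cholesterol genes with a RefSeq window (6.25%), in none of 15 fatty acid genes and in 1.43% of 9933 tested genes. Windows ran from 250 bases before to 50 bases after the start in RefSeq on GRCm38.p6, overlapping matches were counted, and only the 250 bases before the start are printed here, 5′ to 3′, with the matched letters in capitals.
Hmgcs1 (chr13:119690101-119690350, plus strand): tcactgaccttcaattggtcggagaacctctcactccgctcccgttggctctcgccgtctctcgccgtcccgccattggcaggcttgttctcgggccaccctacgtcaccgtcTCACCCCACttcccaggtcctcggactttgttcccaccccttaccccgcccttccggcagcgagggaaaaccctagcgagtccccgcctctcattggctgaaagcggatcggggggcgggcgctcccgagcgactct

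**Figure D3:**
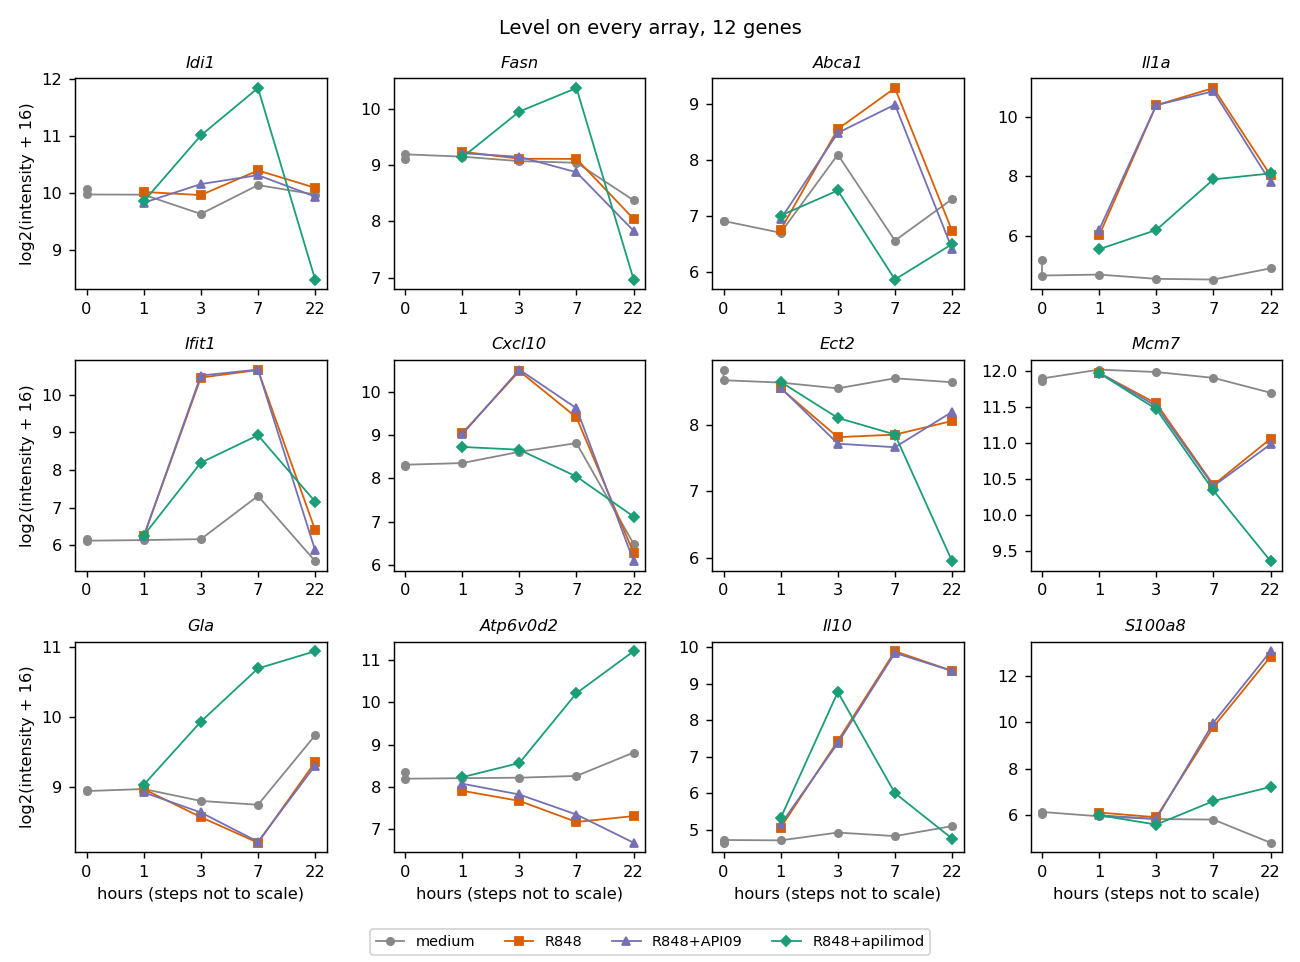
Level on every array (y axis, log2 of intensity plus 16) by hour (x axis, steps not to scale) for 12 genes in medium, R848, R848+API09 and R848+apilimod, 1 point per array with lines joining the arrays of an arm. Idi1 and Fasn cross from above to below the controls between 7 and 22 h, Abca1 and Il1a meet the controls at 22 h, Ect2 and Mcm7 part from them at 22 h, and Gla, Atp6v0d2, Il10 and S100a8 stay apart at both hours.

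The amino acid response was higher at 7 h and mixed at 22 h. Of 30 tested ATF4 response genes, 24 were higher and 1 lower at 7 h (median 0.53). At 22 h 7 were higher and 8 lower (median -0.09), and 10 faded and 5 reversed. Over all genes 20.2% were higher and 14.3% lower at 22 h, so the higher count lies near that share. From 7 to 22 h, 23 of the 30 rose in medium and 17 rose in the controls, against 8 with apilimod. Over all genes 7.43% rose in medium, 29.8% in the controls and 26.8% with apilimod, so the apilimod count lies near that share. Chac1, which degrades glutathione, was 8.62 at 7 h against 8.12 and 8.03 in the controls, and 6.57 at 22 h against 8.40 and 8.12. Its effect turned from 0.55 to -1.69, and the 7 h call was lost without the R848+API09 array of 7 h. Ddit4, an mTORC1 inhibitor, faded from 1.56 to -0.10 as the controls rose by 1.21. Atf3, a stress-induced transcription factor, shrank from 2.33 to 0.90 and stayed higher. Hmox1, the heme oxygenase that NRF2 and heme induce, faded from 1.89 to 0.04, with 12.20 at 7 h against 10.13 and 10.48 and 11.06 at 22 h against 11.09 and 10.94. The other strong faded rises were Ralgds, a Ral exchange factor (2.75 to 0.19), the zinc-finger gene Zfp503 (1.75 to 0.33), Gdap10 and the scavenger receptor gene Colec12 (1.70 to -0.22). Gdap10 had 1.71 at 7 h and at least 0.015 at 22 h, the latter not called and with controls near background.

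Lysosomal genes held their higher level. Of 16 tested vacuolar ATPase subunits, the proton pump that acidifies lysosomes, 14 were higher at 7 h and 14 at 22 h and none lower at either (medians 0.66 and 0.60), and 13 persisted. Without the R848+API09 array of 7 h the 7 h count was 10. Of 38 lysosomal hydrolases and membrane proteins, 25 were higher and 2 lower at 7 h (median 0.49), and 26 were higher and 3 lower at 22 h (median 0.53), with 21 persisted and 3 faded. Over all genes the effect medians were -0.02 and 0.03.

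Atp6v0d2, a macrophage and osteoclast subunit of the pump, stood at 10.22 against 7.17 and 7.35 at 7 h, and at 11.21 against 7.31 and 6.68 at 22 h. Its effect grew from 2.96 ± 0.203 to 4.21 ± 0.203 (adjusted p of the change 0.011). Gla, the alpha-galactosidase, was 10.69 against 8.20 and 8.22 and then 10.94 against 9.35 and 9.30. Its own difference of 0.25 was not called, the controls rose by 1.12, and the effect shrank from 2.48 to 1.61. The chloride exchanger gene Clcn7 shrank from 2.11 to 1.36, and the ATPase genes Atp6v1d and Atp6v1a from 1.53 to 1.06 and from 1.22 to 0.75. The calls for these last changes were lost without the R848 array of 7 h, and for Atp6v1a also without the R848+API09 array of 7 h. Lgmn, a cysteine protease, faded from 0.81 to 0.06, and Arsb, a sulfatase, grew from 0.59 to 1.98 as the controls fell by 1.30. Atp6v0a2 was not called at either hour (-0.39 and 0.30), and its 3 probe sets disagreed in the sign of the change. Gpnmb, a lysosomal stress glycoprotein, stood at 13.86 and 14.03 against 11.17 to 11.33 and 10.95 to 10.99, with effects of 2.61 and 3.05. A dim second probe set gave 2.81 and 1.94, so the direction of its change differs between probe sets, and the call for the change was lost without the R848+API09 array of 7 h, either medium array at 0 h, the 1 h arrays or the 3 h arrays. Neither Tfeb (-0.08 and 0.05) nor Pikfyve at 22 h (0.25) was called, and Pikfyve had an effect of 0.60 at 7 h that was not called without the R848 array of 7 h.

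The windows of Gla and Clcn7 are printed because both genes are strong persisted members and hold the E-box letters TCACGTG that are typical of TFEB target promoters. Among genes with a window, 4 of 10 ATPase subunits (40%) and 13 of 35 lysosomal genes (37.1%) held these letters, against 6.69% of 9933 tested genes. Matches on the opposite strand overlap in Gla, so each capital run there covers a match on either strand.
Gla (chrX:134601006-134601255, minus strand): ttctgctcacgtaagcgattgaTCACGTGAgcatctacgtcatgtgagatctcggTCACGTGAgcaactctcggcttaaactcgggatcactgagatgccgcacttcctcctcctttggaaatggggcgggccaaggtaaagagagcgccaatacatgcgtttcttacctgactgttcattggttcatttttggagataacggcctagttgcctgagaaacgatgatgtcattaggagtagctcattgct
Clcn7 (chr17:25133141-25133390, plus strand): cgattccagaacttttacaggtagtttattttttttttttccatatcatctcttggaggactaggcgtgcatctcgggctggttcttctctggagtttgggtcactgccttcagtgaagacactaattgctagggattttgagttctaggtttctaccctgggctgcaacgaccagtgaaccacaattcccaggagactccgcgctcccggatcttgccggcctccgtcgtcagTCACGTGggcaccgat

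Outside the lysosome, strong persistent rises included Il7r, the interleukin-7 receptor, and Tent5c, a cytoplasmic poly(A) polymerase. Il7r stood at 10.83 against 6.62 and 6.46 at 7 h and at 10.11 against 6.64 and 5.92 at 22 h, effects of 4.29 ± 0.220 and 3.83 ± 0.220 with no called change. Tent5c was 9.34 and 8.27 with apilimod while all controls lay between 4.58 and 4.80, near background, so it was higher by at least 4.25 at 7 h and at least 3.18 at 22 h. A second probe set gave a change of effect of -0.01. The fatty acid binding protein gene Fabp3 had 3.47 and 3.30, with a dim second probe set at 0.04 and 0.05. The kinase gene Sgk1 shrank from 4.25 to 3.15, and the zinc transporter gene Slc39a2 grew from 2.62 to 3.21.

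The IL-10 branch stayed low. Of 14 tested genes of IL-10, Maf and STAT3 signalling, 11 were lower and 2 higher at 7 h (median -0.89), and 9 were lower and 2 higher at 22 h (median -0.55), with 11 persisted. Of these 11 effects, 6 shrank, 2 grew and 3 had no called change. Among all genes tested 9.81% were lower and 9.81% higher at 7 h, and 14.3% and 20.2% at 22 h. The higher counts of the list thus lie near or below those shares. Il10, the anti-inflammatory cytokine, stood at 5.998 against 9.89 and 9.84 at 7 h, and at 4.75 against 9.35 and 9.35 at 22 h. Its effect was -3.86 ± 0.0877 at 7 h. At 22 h the apilimod level was near background, so Il10 was lower by at least 4.26 (adjusted p of the fitted change 0.00211). Maf, a transcription factor that activates Il10, was 5.26 and 5.24 with apilimod against 9.75 and 10.06 and then 9.09 and 9.13. Its effect shrank from -4.65 to -3.87, although a dim probe set gave -0.07 and -0.01. Socs3, the feedback inhibitor that STAT3 induces, grew from -1.71 to -2.78, while the NF-kB cofactor gene Bcl3 shrank from -2.73 to -1.10 and Nfil3 from -1.42 to -0.62.

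Acute-phase and antimicrobial genes were lower with apilimod or not called, and the effects of single members moved both ways. Of 16 tested, 5 were lower at 7 h and 6 at 22 h and none higher, and the effect changed upward in 4 and downward in 2. Among all genes tested 9.81% were lower at 7 h and 14.3% at 22 h. The effect changed upward in 11.2% of them and downward in 8.75%, so the downward count of the list lies near that share. S100a8, a calprotectin subunit, was 6.61 and 7.22 with apilimod against 9.80 and 9.98 and then 12.81 and 13.05, and its effect grew from -3.28 ± 0.119 to -5.71 ± 0.119 (adjusted p of the change 9.19e-06). Wfdc21 was near background with apilimod and was lower by at least 2.49 at 7 h and at least 4.68 at 22 h, as the controls rose by 2.19. Lcn2 went the other way, from -3.14 to -1.47, while the controls rose by 3.10.

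Other strong lower effects lay outside that list. Il33, a nuclear alarmin, was 4.50 and 4.59 with apilimod, near background as in medium (4.47 and 4.43), while the controls went from 7.93 and 7.86 to 10.60 and 10.38. It was lower by at least 2.80 at 7 h and at least 5.40 at 22 h. Timp1, a metalloproteinase inhibitor, had an effect of -3.93 at 7 h and was lower by at least 4.99 at 22 h. Serpinb2, the plasminogen activator inhibitor 2, was 4.96 and 4.57 against controls of 9.71 to 10.22, lower by at least 5.03 and at least 4.86. The endothelial-type lipase gene Lipg was lower by at least 3.86 and at least 3.18. Neither Serpinb2 nor Lipg had a called change, although that of Lipg (0.48) was called with the mean over probe sets.

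Several early inflammatory genes converged on the controls as the controls declined, while the list was mixed. Of 24 tested inflammatory cytokines, 11 were lower and 4 higher at 7 h, and 7 were lower and 3 higher at 22 h, with 5 faded and 2 reversed. Among all genes tested 9.81% were lower and 9.81% higher at 7 h, and 14.3% and 20.2% at 22 h. The higher count at 22 h thus lies below that share. Faded genes were 4.14% and reversed genes 1.48% of all genes, and the effect changed upward in 11.2% and downward in 8.75%. In the cytokine list the effect changed upward in 8 and downward in 5, and among persisted effects 3 shrank and 2 grew. From 7 to 22 h 13 of the 24 fell and 4 rose in the controls, beside 29.2% and 29.8% of all genes, so the count that rose lies below that share. Il1a stood at 7.90 against 10.97 and 10.86 at 7 h, and at 8.10 against 8.04 and 7.81 at 22 h, above both controls by less than the test resolves. The apilimod difference of 0.20 was not called, the controls fell by 2.99, and the effect faded from -3.01 ± 0.177 to 0.18 ± 0.177 (adjusted p of the change 1.71e-05). Il1b was 8.49 and 8.68 against 13.56 and 13.51 and then 11.53 and 11.35, so its effect shrank from -5.05 to -2.77 and persisted. Il6 shrank from -2.25 to -0.91 and Ccl5 from -2.99 to -1.30. Tnf was a contrary case: it was higher at 7 h (12.97 against 11.86 and 11.79) and level at 22 h (9.74 against 9.88 and 9.62), an effect that faded from 1.15 to -0.01. Tnfsf9, the 4-1BB ligand, reversed from 0.91 to -0.68, and Il15 from -0.90 to 1.07.

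Of the cytokine subunits for which apilimod is known, Il12b and Il23a were near background on most of the R848 arrays at 7 and 22 h. Il12a was not among the genes tested. Il12b was 4.76 and 4.78 with apilimod, and 5.28 and 5.60 in the controls at 7 h and 4.75 and 4.79 at 22 h, so it was lower by at least 0.35 at 7 h and near background in all 3 arrays at 22 h. Il23a was 4.76 at 7 h and 5.54 at 22 h with apilimod against 4.87 and 4.81 and then 4.75 and 4.89, a late effect of at least 0.45. Ifnb1 was lower by at least 0.28 at 7 h, a call lost without the R848+API09 array of 7 h, the 1 h arrays or either medium array at 0 h, and was near background at 22 h. Nos2, the inducible nitric oxide synthase, had 0.67 at 7 h, a call lost without the R848 array of 7 h, and 0.42 at 22 h, not called. Tlr7 itself had 0.33 at 7 h, not called, and 0.54 at 22 h, called. With its 3 probe sets averaged the 7 h effect (0.35) was called and the 22 h effect (0.22) was not, and the 7 h effect was also called with quantile normalization, with median centring, with either control arm alone or without either 22 h control array.

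MAP kinase feedback genes followed the same convergence. Of 18 tested phosphatases and feedback inhibitors, 13 were lower and 1 higher at 7 h (median -0.65), and 8 were lower and 2 higher at 22 h (median -0.21), with 14 falling in the controls from 7 to 22 h. Among all genes tested 9.81% were lower and 9.81% higher at 7 h, 14.3% and 20.2% at 22 h, and 29.2% fell in the controls. The higher counts of the list thus lie below those shares. Dusp5, an ERK phosphatase, was 7.26 and 7.15 with apilimod against 9.44 and 9.74 and then 7.49 and 7.31, and its effect faded from -2.33 to -0.25. Dusp6, also an ERK phosphatase, rose by 0.95 with apilimod and its effect shrank from -2.56 to -0.71. Errfi1 faded from -1.78 to 0.02. The checkpoint receptor gene Pdcd1 was lower by at least 3.04 at 7 h and at least 0.17 at 22 h, the latter not called, as the controls fell by 2.87. Ptpn22, a phosphatase of immune cells, faded through the apilimod arm itself, which rose from 7.11 to 9.57 while the controls stayed between 9.33 and 9.62. Egr3 was lower by at least 1.83 at 7 h and near background in all 3 arrays at 22 h, but its second probe set gave -0.10 at 7 h.

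Interferon-stimulated genes were mostly lower at 7 h and more often higher than lower at 22 h. Of 35 tested, 22 were lower and 1 higher at 7 h (median -0.55), and 15 were higher and 6 lower at 22 h (median 0.27). The effect changed upward in 24 and downward in none, with 7 faded and 7 reversed. From 7 to 22 h 32 fell in the controls (median -1.56), 20 fell with apilimod (median -0.78) and 15 fell in medium. Ifit1, which binds viral RNA caps, was 8.92 against 10.66 and 10.67 at 7 h and 7.16 against 6.41 and 5.87 at 22 h, with effects of -1.74 ± 0.164 and 1.02 ± 0.164 (adjusted p of the change 2.4e-05). Ifit3 went from -1.93 to 0.45, the latter not called, so that it counted as faded. Its 22 h effect was called, which would make it reversed, without the R848 array of 7 or of 22 h (0.56 for the latter), the R848+API09 array of 7 h or the 3 h arrays, with trended and robust variances, and with R848+API09 as the only control (0.56). Ifit2 had a late effect of 1.36 and Herc6 reversed from -0.91 to 0.66. Rsad2, the antiviral viperin gene, was the member that was higher at 7 h: it stood at 10.75 against 9.55 and 9.85 and then at 9.38 against 6.78 and 6.50, and its effect grew from 1.05 to 2.74. Ifi44l stayed lower, with -0.90 and -0.60.

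Chemokines were mixed, with 7 of 16 lower and 2 higher at 7 h, and 4 lower and 5 higher at 22 h. Cxcl10, which interferon induces, was 8.04 against 9.40 and 9.61 at 7 h and 7.12 against 6.28 and 6.09 at 22 h. Its effect reversed from -1.47 ± 0.110 to 0.93 ± 0.110 (adjusted p of the change 7.19e-06) with a fall by 0.92 in the apilimod arm and by 3.33 in the controls. Cxcl16 had a late effect of 1.70. The other strong reversals from lower to higher were Clec7a, the beta-glucan receptor dectin-1, from -1.47 to 1.21, Cd83, a maturation marker, from -1.12 to 1.80, and the inducible heat shock gene Hspa1b, from -1.41 to 1.11, whose probe set may share signal with its near-identical neighbour. Clec4n reversed from -0.83 to 0.79. Of 17 heat shock genes, 2 were lower and 1 higher at 7 h, and 3 were lower and 1 higher at 22 h. Over all genes 9.81% were lower and 9.81% higher at 7 h, and 14.3% and 20.2% at 22 h. The lower counts thus lie near the shares over all genes, and the higher count at 22 h lies below.

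Windows of Ifit1, Ifit3 and Rsad2 are printed because Ifit1 and Ifit3 were lower and Rsad2 higher at 7 h, and all hold the interferon response letters, which are GAAA, any 2 bases and GAAA again. On the opposite strand these read as TTTC, any 2 bases and TTTC, as they do below. They occurred in 14 of 26 interferon-stimulated genes with a window (53.8%), against 3.57% of 9933 tested genes.
Ifit1 (chr19:34640639-34640888, plus strand): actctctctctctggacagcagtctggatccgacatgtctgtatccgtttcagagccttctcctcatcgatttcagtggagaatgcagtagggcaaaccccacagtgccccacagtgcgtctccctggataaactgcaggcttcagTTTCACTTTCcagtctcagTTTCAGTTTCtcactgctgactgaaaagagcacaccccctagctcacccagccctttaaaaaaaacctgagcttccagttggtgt
Ifit3 (chr19:34583279-34583528, plus strand): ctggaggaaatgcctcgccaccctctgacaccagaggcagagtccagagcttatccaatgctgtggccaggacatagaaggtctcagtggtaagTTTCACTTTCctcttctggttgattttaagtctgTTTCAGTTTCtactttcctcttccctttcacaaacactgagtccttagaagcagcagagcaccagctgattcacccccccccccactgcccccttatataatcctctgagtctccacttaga
Rsad2 (chr12:26456453-26456702, minus strand): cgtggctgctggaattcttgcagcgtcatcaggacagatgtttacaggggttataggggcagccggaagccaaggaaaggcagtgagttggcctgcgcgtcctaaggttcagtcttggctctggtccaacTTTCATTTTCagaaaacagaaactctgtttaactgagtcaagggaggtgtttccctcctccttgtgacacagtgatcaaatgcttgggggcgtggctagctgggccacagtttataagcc

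**Figure D4:**
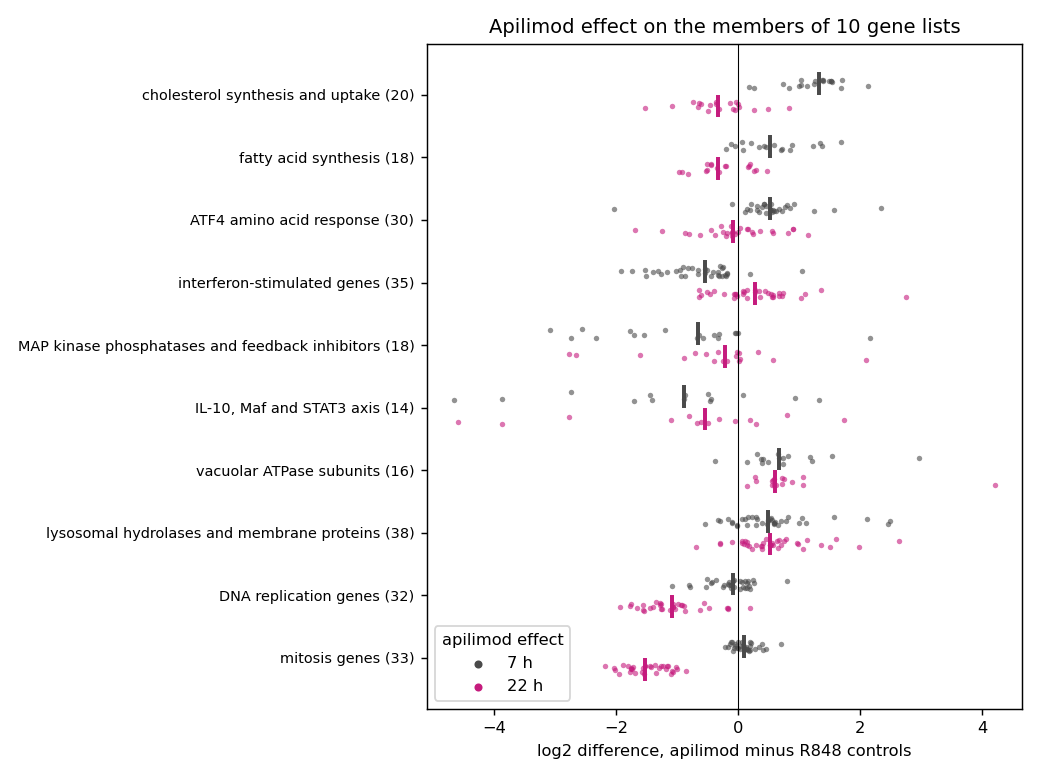
Apilimod effect (x axis, log2 difference from the R848 controls) at 7 h (grey) and 22 h (magenta) for the members of 10 gene lists, 1 point per gene, with bars at the medians and the number of genes tested in brackets. The medians cross 0 for the cholesterol (1.32 to -0.34) and interferon lists (-0.55 to 0.27), stay above 0 for the 2 lysosomal lists, and leave 0 for the mitosis list (0.10 to -1.52).

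Cell-cycle genes parted from the controls late. All 33 tested mitosis genes were lower with apilimod at 22 h (median -1.52), whereas at 7 h 2 were higher and none lower (median 0.10). The change of the effect was called for all 33, and 31 were late and 2 reversed. At 7 h 11 were higher with the R848+API09 array as the only control. With apilimod 32 of 33 fell from 7 to 22 h, while in the controls 14 rose and 6 fell and in medium 6 fell. Relative to medium, all 33 were already lower in the controls at 7 h (median -1.03, with 18.5% of all genes lower) and 30 were lower at 22 h (median -0.58, with 29% of all genes lower).

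Ect2, an exchange factor needed for cytokinesis, was 7.86 against 7.86 and 7.67 at 7 h and 5.95 against 8.06 and 8.20 at 22 h. The effect was 0.10 ± 0.112 at 7 h and -2.19 ± 0.112 at 22 h (adjusted p of the change 9.53e-06). Ccnb2, a mitotic cyclin, went from 9.84 to 7.90 with apilimod and from 9.81 and 9.74 to 10.02 and 9.84 in the controls. Top2a, topoisomerase II alpha, had effects of 0.19 and -1.88, Pbk, a mitotic kinase, 0.10 and -2.10, and the tubulin gene Tubb4b -0.02 and -2.15, while the 7 to 22 h difference with apilimod was -2.83 for the Tubb4b probe set used and 0.88, -0.32 and -0.07 for its dimmer ones. Of 32 DNA replication genes, 28 were lower and none higher at 22 h (median -1.09), against 8 lower and 1 higher at 7 h, and 20 were late. In the controls 23 of them rose from 7 to 22 h, and with apilimod 20 fell. The helicase gene Mcm7 was 10.34 against 10.42 and 10.40 at 7 h and 9.36 against 11.06 and 10.98 at 22 h, effects of -0.07 and -1.66. The DNA ligase gene Lig1 had 0.26 and -1.26, and Pclaf, a PCNA clamp-associated factor, -0.21 and -2.39.

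The window of Ccnb2 is printed because mitosis genes are known for repeated CCAAT boxes, and 3 of them lie in its 250 bases. CCAAT on either strand occurred in 20 of 27 mitosis genes with a window (74.1%) against 42.6% of 9933 tested genes. The cell cycle homology letters TTTGAA occurred in 21 of 27 (77.8%) against 14.4%.
Ccnb2 (chr9:70421555-70421804, minus strand): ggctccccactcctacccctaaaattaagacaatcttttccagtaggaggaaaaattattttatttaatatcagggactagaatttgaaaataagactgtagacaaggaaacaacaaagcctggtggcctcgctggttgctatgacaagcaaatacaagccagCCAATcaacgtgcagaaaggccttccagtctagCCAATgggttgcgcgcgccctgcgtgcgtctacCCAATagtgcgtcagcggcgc

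Late rises were led by Car6, at 9.79 against 7.46 and 6.87 at 22 h, an effect of 2.62 ± 0.192. Rgs2, a regulator of G-protein signalling, was 10.41 against 8.09 and 7.95, an effect of 2.39. H1f2 had 2.36, the glutathione transferase gene Gstm1 2.31 and H2ac19 2.03, and Crot had 0.66. The lowest late effect was C1qb, a complement subunit, which stood at 5.26 at 22 h against 8.05 and 7.99, an effect of -2.76, with a rise by 1.78 in the controls. The splicing genes Srsf2 (-1.85), Sfpq (-1.22) and Pspc1 (-0.86) also had late lower effects, on top of falls in the controls by 2.09, 3.84 and 1.92. Ribosome biogenesis fell in both arms. With apilimod 32 of 36 genes were lower at 22 h than at 7 h (median -0.98), and in the controls 35 (median -0.91). In medium, without R848, 21 of them also fell (median -0.40), beside 6.11% of all genes. The 22 h effect was lower for 13 of these genes. Dkc1, a pseudouridine synthase, had -0.13 and -1.002, and Myc faded from -0.96 to 0.31. Of 39 oxidative phosphorylation subunits, 10 were higher with apilimod at 22 h and 1 at 7 h. Over all genes 20.2% were higher at 22 h and 9.81% at 7 h, so the 22 h count lies near the background and the 7 h count below it. With R848 alone as control the 22 h count was 9, beside 2453 of all 12257 genes, and with R848+API09 alone it was 25, beside 3928. Sqor stayed lower at -1.66 and -0.71, Urah at -1.28 and -2.28, and Gadd45a faded from -1.31 to 0.01.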

How the data were processed

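RAW cell RNA was amplified by NuGEN's Ovation kit and run on Affymetrix arrays of 1 colour, as the labels' protocols say. The files hold deposited intensities, not log-transformed. No label states the background correction, the summarisation or the normalization between arrays, and the close medians of the arrays were taken to mean that they had been normalized. Among the tools, the submitters' processing notes list limma alone. How many cultures the arrays stand for is not stated, and it is the number of arrays that limits the precision.

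Of 45101 probe sets, 34958 had 1 gene symbol in GEO's platform annotation, 932 had several and 9160, control probe sets aside, had none. Symbols were updated through Entrez identifiers for 34754. Probe sets above 18.1, the overall median intensity, on 3 or more arrays were kept (24154 probe sets, 21361 with 1 symbol), and a gene's brightest probe set stood for it. This gave 12257 genes, 5456 with several kept probe sets. Values were tested as log2(intensity + 16), which understates the change of dim genes.

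limma 3.58.1 in R 4.3.3 fitted 1 mean per arm and hour over the 18 arrays, with R848 alone and R848+API09 sharing the mean of their hour. This left 5 residual degrees of freedom before moderation. Tests were two-sided with Benjamini-Hochberg adjustment over all genes, called at 0.05. The code was tested on simulated data. The median SE was 0.127 for the 7 to 22 h change with apilimod or in medium and 0.0895 for that in the controls. It was 0.110 for an effect and 0.155 for the change of an effect.

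The question, the gene lists and the members described were chosen with earlier results of these data known. Named genes were the 10 largest called rises and falls with apilimod, 6 of each direction for persisted, faded and reversed effects and 5 for late ones, ranked by effect size, up to 5 members with the largest change of effect in each list described, and the fixed genes Il12b, Il23a, Il6, Il10, Tnf, Il1b, Nos2, Cxcl10, Ccl5, Ifnb1, Gpnmb, Atp6v0d2, Tfeb, Pikfyve, Insig1, Abca1 and Tlr7, with a further fixed gene that is not reported here. The lists described were chosen after their values were seen. Alternatives were quantile normalization, median centring, no filter, a filter at the 75th percentile, the mean over probe sets, trended and robust variances, a pseudocount of 1, a minimum difference of 1, each control arm alone, and each control array or hour left out. Promoter letters came from RefSeq windows on GRCm38.p6, which matched 9933 genes.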

Additional observations from a re-analysis of the deposited data

Results flagged for a closer look

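The apilimod effect differed between 22 and 7 h, by limma's test of that difference itself, in 2451 genes, and the named genes among them are given with the difference (effect at 22 h minus effect at 7 h, in log2 units, from 1 apilimod array per hour).

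Among the lipid genes the effect went downward in Rnf145 (-3.40), Idi1 (-3.02), Fasn (-2.35), Hmgcs1 (-2.34), Lpcat1 (-2.18), Fdft1 (-2.17), Mvd (-2.17), Lss (-1.86), Scd1 (-1.78), Msmo1 (-1.77), Scd2 (-1.52) and Insig1 (-0.68), and upward in the efflux gene Abca1 (3.20). Stress response genes went downward too, with Chac1 (-2.24), Hmox1 (-1.85), Ddit4 (-1.66) and Atf3 (-1.43), while the heat shock gene Hspa1b went upward (2.52) and so did the arrest gene Gadd45a (1.32).

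Interferon-related genes went upward, namely Ifit1 (2.76), Cxcl10 (2.40), Ifit3 (2.37), Ifit2 (1.78), Rsad2 (1.69) and Herc6 (1.57). The same direction was seen for Il1a (3.19), Il1b (2.28), Il15 (1.97), Ccl5 (1.68), Cxcl16 (1.41), Il6 (1.33), Il23a (0.80) and Il12b (0.69), and for the receptors Cd83 (2.93), Pdcd1 (2.88), Clec7a (2.68) and Clec4n (1.62). Feedback and transcription genes that went upward were Ptpn22 (2.61), Dusp5 (2.08), Egr3 (1.94), Dusp6 (1.85), Errfi1 (1.80), Bcl3 (1.63), Myc (1.27), Nfil3 (0.80) and Maf (0.79). Downward went Il33 (-2.50), S100a8 (-2.44), Wfdc21 (-2.06), Tnfsf9 (-1.59), Tnf (-1.16), Timp1 (-1.14), Socs3 (-1.07) and Il10 (-0.73), while Lcn2 went upward (1.66).

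Cell-cycle genes went downward, with Ect2 (-2.28), Pbk (-2.20), Pclaf (-2.18), Tubb4b (-2.13), Ccnb2 (-2.09), Top2a (-2.07), Mcm7 (-1.59) and Lig1 (-1.52), as did C1qb (-2.35), Srsf2 (-1.70), Pspc1 (-1.22), Sfpq (-1.07) and Dkc1 (-0.87). Late rises were Car6 (2.44), H1f2 (2.13), Gstm1 (2.08), Rgs2 (2.07), H2ac19 (1.96) and Crot (0.91), with Sqor at 0.95 and Urah at -1.002. In the lysosome, Arsb (1.39), Atp6v0d2 (1.26) and Gpnmb (0.45) went upward and Gpr137b (-1.20), Gla (-0.87), Lgmn (-0.75), Clcn7 (-0.75), Atp6v1d (-0.47) and Atp6v1a (-0.47) downward. The remaining genes were Ralgds (-2.56), Colec12 (-1.91), Gdap10 (-1.47), Zfp503 (-1.42), Tent5c (-1.20), Sgk1 (-1.09) and Slc39a2 (0.58). For Tent5c, Gdap10, Timp1, Il10, Il33, Pdcd1, Egr3, Wfdc21, Il12b and Il23a, the apilimod array or both controls lay near background at 1 or both hours, so that the size of these fitted changes is uncertain.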

How the results depend on the processing

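With a minimum difference of 1 the counts were 1709 genes changed with apilimod, 550 effects at 7 h, 607 at 22 h, 582 changed effects, 198 persisted, 166 faded, 8 reversed and 235 late. With R848+API09 as the only control, changed effects were 4532 (3034 upward and 1498 downward), reversed 488 and late 2450, and with R848 as the only control reversed were 301. Leaving out 1 control array or hour gave 1727 to 4567 changed effects, 348 to 766 faded, 121 to 468 reversed and 937 to 2419 late, the highest of each without the R848 array at 22 h, and 352 reversed without that of R848+API09. These omissions gave 5885 to 7526 genes changed with apilimod, 1802 to 3536 effects at 7 h, 3715 to 5854 at 22 h and 998 to 1789 persisted. With the mean over probe sets the 7 to 22 h difference with apilimod was 0.11 for Egr3 and -0.60 for Gpnmb, and the change of effect was -0.21 for Gpnmb. In the main fit neither the 22 h effect of Gpr84 nor its change was called, and the sign of both depended on the control array used. Without the R848 array at 22 h the effect was 0.46 and the change 0.39, and the effect was also 0.46 with R848+API09 alone. They were -0.96 and -1.04 when the R848+API09 array at 22 h was left out. When either 22 h control array was left out, the 7 h effects of H1f2, Crot, Gstm1, C1qb, Pspc1, Cxcl16 and Ifit2 were called, so that these genes were no longer late by the definition used. When that of R848 was left out, the 22 h effects of Atp6v0a2 (0.59), Nos2 (0.66) and Pikfyve (0.46) were called. The call for the change of Insig1 was lost with R848+API09 at 7 h left out. The changes of Il7r and Pikfyve were called once R848+API09 at 22 h was left out, and that of Serpinb2 once R848 at 22 h was. Median centring moved the median 7 to 22 h difference of all genes from 0.06 to 0.21 in the controls and from 0.08 to 0.16 with apilimod. Under the alternatives, 138 list medians moved by more than 1 SD and 438 by less. No paired analysis was possible because only the 2 medium arrays at 0 h carry replicate numbers. Apilimod had 1 array per hour, so leaving it out was not possible, and signal near background limits dim genes such as Il12b and Ifnb1.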

Other observations

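Further lists gave values outside the comparisons above, and the members named here were chosen after their values were seen. Over all genes tested 9.81% were higher and 9.81% lower at 7 h, against 20.2% higher and 14.3% lower at 22 h. Of 30 autophagy genes 9 were higher with apilimod at 7 h and 15 at 22 h, with none lower at either hour (medians 0.08 and 0.27). Atg7, needed for LC3 lipidation, had effects of 0.59 and 1.40. Of 25 costimulatory and adhesion genes 9 were lower and 5 higher at 7 h, against 4 lower and 12 higher at 22 h. Cd40 turned from -1.45 to 0.41, and Cd86, a ligand of CD28, had -0.28 at 7 h, not called, and 1.08 at 22 h. Among 24 immediate-early transcription factors 12 lay below and 4 above the controls at 7 h, against 6 and 5 at 22 h, where the share above lies near that over all genes, and Fos turned from -2.21 to 0.63.

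Of 30 glycolysis and hypoxia genes 13 had a higher level with apilimod at 7 h and 1 a lower one, against 8 and 6 at 22 h, where both shares lie near those over all genes. The hexokinase genes Hk1 and Hk2 turned from 1.04 to -0.25 and from 0.50 to -0.89. Of 26 macrophage identity genes 10 were lower and 3 higher at 7 h, and 10 were lower and 5 higher at 22 h, with the effect changing upward in 7 and downward in 5. Among these, Aif1, an actin-bundling protein, went from -0.65 to -2.97 and Trem2, a lipid receptor, from 0.49 to 2.25. Each of these changes of effect was called by limma over all genes, with differences of -2.32 for Aif1, 1.76 for Trem2, 2.84 for Fos and 0.81 for Atg7.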
